A study of Mus musculus with 2 samples.

Results

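MiR-155, miR-146a, miR-146b and miR-21 are 4 microRNAs (miRNAs) grouped here because inflammatory signals are known to induce them in blood cells. They were taken by name (mmu-miR-155, mmu-miR-146a, mmu-miR-146b and mmu-miR-21) from the array's list of 566 mouse miRNAs. Their levels were compared between LKS cells and total bone marrow (total BM), both from C57BL/6J mice. LKS cells lack lineage markers, carry Kit and Sca1 and hold the haematopoietic stem and early progenitor cells; they were obtained from marrow by magnetic enrichment followed by fluorescent sorting. Total BM is unsorted marrow, in which maturing myeloid, erythroid and lymphoid cells prevail. The labels name no treatment or inflammatory stimulus in either group, and they give neither the age nor the number of the mice, so all levels are those of cells taken without a stated challenge. Each group was 1 array, so no p-value is given. Every ± is the technical error deposited with a signal, or one propagated from it, and it does not cover variation between animals or preparations.

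A miRNA guides the silencing complex to messenger RNAs mainly through its seed, the bases from position 2 to position 8. NF-kB, the transcription factor downstream of Toll-like receptors, induces miR-155 and miR-146a in macrophages. MiR-146a then represses Traf6 and Irak1, adaptors of the same pathway, and so acts as a brake, whereas miR-155 represses inhibitors of signalling such as Socs1 and Inpp5d (SHIP1) and so prolongs the response. MiR-21 is induced by AP-1 and STAT3 and represses Pdcd4. In mouse marrow, forced expression of miR-155 is known to cause myeloid expansion, and loss of miR-146a leads over time to myeloid expansion and loss of stem cells.

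The mature sequences show which of the 4 could share targets. They are the 5' arms in RefSeq (GRCm38.p6), 5' to 3', with the seed in capitals, and the array's unsuffixed names were taken as these arms.
miR-155-5p: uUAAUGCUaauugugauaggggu
miR-146a-5p: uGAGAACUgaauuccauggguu
miR-146b-5p: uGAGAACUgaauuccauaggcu
miR-21a-5p: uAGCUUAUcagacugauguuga
The 4 miRNAs have 3 seeds, since miR-146a and miR-146b share theirs. These paralogs are identical at 20 of 22 positions. Counted from 1 at the 5' end of miR-146a, the differences are G18A and U21C, both outside the seed. In the RefSeq table no other mature mouse miRNA has the seed of miR-155 or of the miR-146 pair. The seed of miR-21 recurs in miR-21c, which has the same first 15 bases and is not a name on this array. MiR-590-5p, which is on the array and was called detected in neither sample, was not compared by seed here.
miR-21c: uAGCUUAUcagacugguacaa

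The hairpins, with the mature 5' arm in capitals, place the 4 genes at separate loci. They are shown because the array also carried the opposite arm of 2 of them, miR-21* and miR-146b*.
Mir155: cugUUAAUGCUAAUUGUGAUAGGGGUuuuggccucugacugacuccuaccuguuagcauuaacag
Mir146 (miR-146a): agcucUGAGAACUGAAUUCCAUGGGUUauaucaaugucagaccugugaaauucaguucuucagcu
Mir146b: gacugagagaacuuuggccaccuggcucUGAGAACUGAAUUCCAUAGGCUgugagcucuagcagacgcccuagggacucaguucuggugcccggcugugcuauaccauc
Mir21a: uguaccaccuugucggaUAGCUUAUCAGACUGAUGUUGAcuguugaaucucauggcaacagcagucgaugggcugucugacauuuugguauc
In GRCm38.p6, Mir155 lies at chr16:84714140-84714204 on the plus strand, within Mir155hg (Bic), the non-coding gene whose transcript is its precursor. Mir21a lies at chr11:86584067-86584158 on the minus strand, within the span of the protein-coding gene Vmp1. Mir146 lies at chr11:43374397-43374461 on the minus strand, outside every other gene of the annotation used. Mir146b lies at chr19:46342762-46342870 on the plus strand, within the span of the non-coding gene Gm36493. The array files name no build, so these positions belong to RefSeq and not to the probes.

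The 4 miRNAs fell into 3 patterns. MiR-155 was detected on both arrays and was higher in LKS cells. MiR-21 was bright on both arrays, and its ratio was small and changed sign with the scaling. MiR-146a was called detected in total BM only, at a faint signal, and miR-146b was called on neither array. LKS cells thus had detected signals for 2 of the 4 and total BM for 3 of the 4. The total BM array called more names detected in general, 25.6% of all 566 against 17.3% on the LKS array. The higher member count of total BM is therefore not read as a property of the members. Detection on both arrays held for 2 of the 4 members, against 16.4% of all 566 names. The panel plot of the signals shows these patterns.

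**Figure D1:**
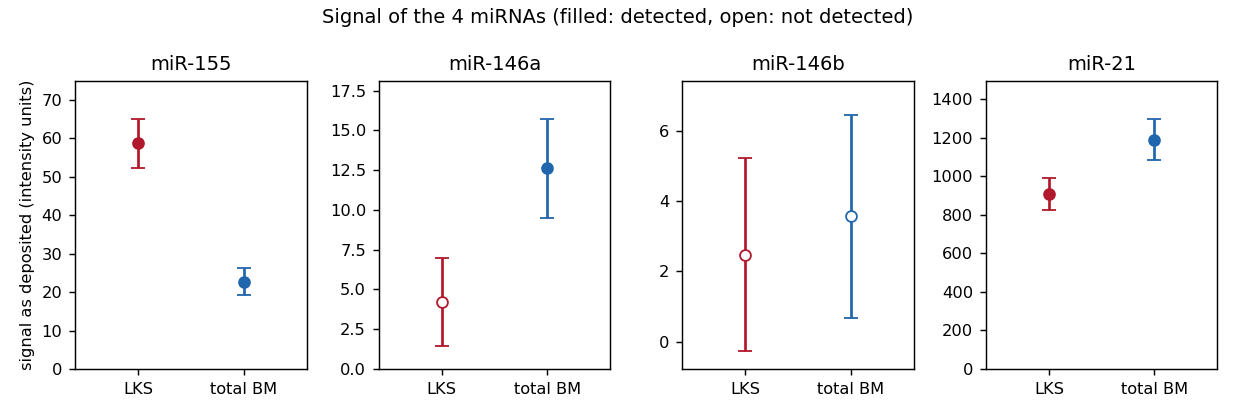
Signal as deposited, in intensity units, for miR-155, miR-146a, miR-146b and miR-21, with LKS cells on the left (red) and total BM on the right (blue) of each panel; bars are the deposited technical error of 1 array, filled points were called detected and open points were not. Each panel has its own linear axis, since different probes cannot be compared with each other. MiR-155 was higher in LKS cells (58.7 against 22.7), while both points of miR-146b overlap within their errors.

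The arrays as a whole set the frame for these values. Of the 566 mouse names, 98 were detected in LKS cells and 145 in total BM, 93 of them on both, and the detected signals summed to 23256 units in LKS cells and 52484 units in total BM. To scale them, the 75th percentile of the 93 shared miRNAs was taken as the unit of each array, 242 units in LKS cells and 399 units in total BM, which adds 0.72 to every log2 ratio of LKS over total BM. Known cell type miRNAs ran in the direction of the sample labels. Their lists were chosen with earlier results of these data known, so this direction is no independent check of the labels. All 3 erythroid names (miR-451, miR-144 and miR-486) were detected in total BM only, against 9.19% of all 566 names. In LKS cells the 4 shared names of an early progenitor list all stood at least 2-fold higher, against 18.3% of the 93 shared miRNAs. MiR-125b-5p of that list was detected in LKS cells only, a class of 0.883% of all names. None of 5 stroma names was detected on either array, as held for 73.5% of all names. Messenger RNAs, such as those of the sort markers, were not measured on these arrays.

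MiR-155 was the member with a clear excess in LKS cells. Its signal was 58.7 ± 6.47 units in LKS cells and 22.7 ± 3.59 units in total BM. Both readings stood well clear of their own errors, at 9.07 and 6.34 times the error in LKS cells and total BM. The 2 signals as deposited differed by 36.0 ± 7.40 units, which is 4.86 combined errors, although the LKS array was the dimmer one. After scaling, miR-155 was 4.26-fold higher in LKS cells, a log2 ratio of 2.09 ± 0.28. Without scaling it was still 2.58-fold higher.

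Few of the shared miRNAs had a larger LKS excess. The log2 ratio of miR-155 was the 7th highest of the 93 shared miRNAs, whose ratios ran from -5.06 to 4.79 with a median of 0.07, and this rank is the same whatever constant the arrays are scaled by. The rank leaves out the 5 names detected in LKS cells only. Of those, let-7e and miR-125b-5p had computed bounds of 9.42-fold and 7.56-fold, above the 4.26-fold of miR-155. MiR-155 was the 1 member called at least 2-fold higher, of the 2 members measured on both arrays. The background share of such calls was 18.3% (17 of 93), and with 2 measured members no share can be read for the group. MiR-155 made up 0.252% of the summed detected signal of LKS cells and 0.0433% of that of total BM.

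**Figure D2:**
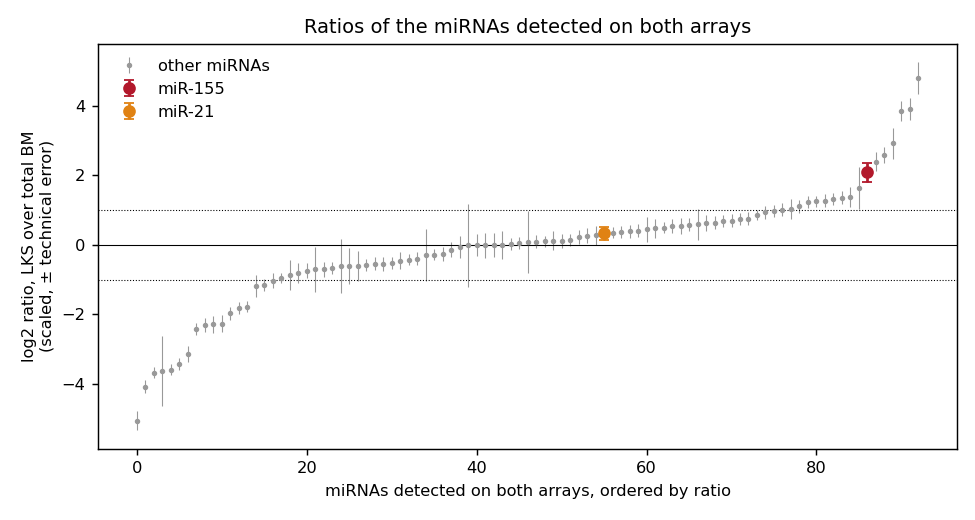
Log2 ratio of LKS over total BM after scaling (vertical axis) for the 93 miRNAs detected on both arrays, ordered from lowest to highest (horizontal axis); bars are technical errors, dotted lines mark 2-fold, and red and orange mark miR-155 and miR-21. MiR-155 (2.09) stands near the upper end and miR-21 (0.33) within the broad middle.

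The shared miRNAs nearest to miR-155 in ratio were miR-181c, miR-181d and miR-126-3p, where likeness is the absolute difference in log2 ratio over 2 arrays. MiR-181c had 64.6 ± 5.68 units in LKS cells and 20.2 ± 3.25 units in total BM, a log2 ratio of 2.40 ± 0.26. MiR-181d was fainter, with 15.3 ± 3.08 units in LKS cells and 8.12 ± 2.94 units in total BM, a log2 ratio of 1.64 ± 0.60. MiR-126-3p, known from endothelial cells and haematopoietic stem cells, had 87.6 ± 7.01 units in LKS cells and 24.2 ± 3.38 units in total BM, a log2 ratio of 2.58 ± 0.23. The ratio of miR-181c lay 0.31 above that of miR-155 and the ratio of miR-181d 0.45 below it, gaps under the combined error of each pair. That of miR-126-3p lay 0.49 above it, which is 1.35 combined errors.

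MiR-21 was a bright probe on both arrays and shifted little between them. Its signal was 906 ± 83.1 units in LKS cells and 1190 ± 109 units in total BM. In the signals as deposited it was thus lower in LKS cells, with a difference (LKS minus total BM) of -284 ± 137 units, -2.07 combined errors and a log2 ratio of -0.39. After scaling it was higher in LKS cells, with a log2 ratio of 0.33 ± 0.19, or 1.26-fold. The direction of miR-21 therefore depended on the scaling, and both differences were below 2-fold. It made up 3.90% of the summed detected signal of LKS cells and 2.27% of that of total BM.

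Within the set of shared miRNAs, miR-21 held a middle place: 37 had a higher ratio and 55 a lower one. The middle part of the shared ratios, between their 25th and 75th percentiles, ran from -0.66 to 0.69. Nearest to miR-21 were miR-24 at a log2 ratio of 0.35 ± 0.15, miR-148a at 0.38 ± 0.18 and miR-331-3p at 0.27 ± 0.28. Their ratios differed from that of miR-21 by at most 0.06, less than any of the errors. MiR-21*, the opposite arm of the hairpin shown above, was detected on neither array (-9.12 ± 1.91 units in LKS cells and -3.84 ± 2.01 units in total BM).

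The comparison of miR-155 with miR-21 is free of the scaling constant, since both were read on the same 2 arrays. The log2 ratio of miR-155 exceeded that of miR-21 by 1.76 ± 0.33, or 5.27 errors, which is a 3.39-fold shift in the balance of these 2 signals toward miR-155 in LKS cells. The difference was 1.71 with recentred background, 1.66 in the authors' deposited value table and 2.38 after quantile normalization. Signals of different probes do not give their relative abundance, so the difference does not say which of them was the more abundant.

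**Figure D3:**
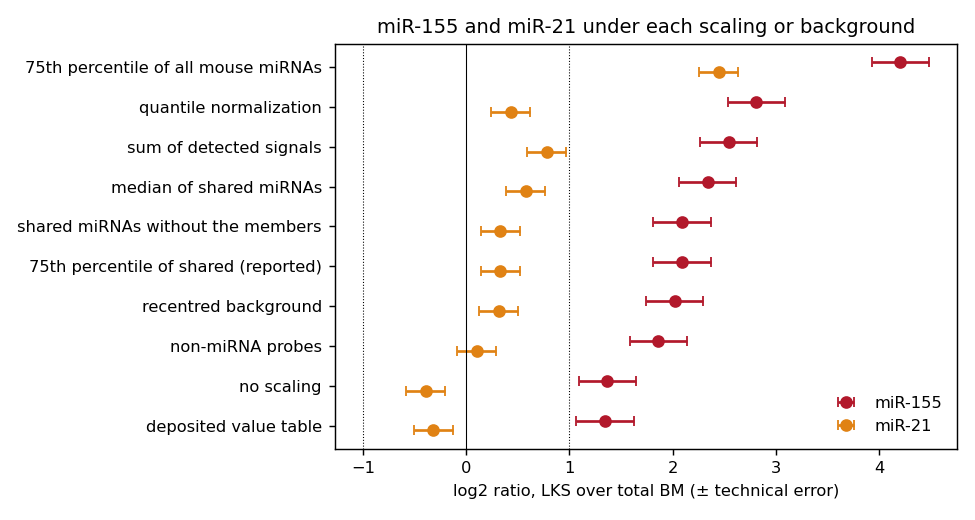
Log2 ratio of LKS over total BM (horizontal axis) of miR-155 (red) and miR-21 (orange) under each way of scaling the arrays or setting the background (rows); bars are the technical error of the reported ratio and dotted lines mark 2-fold. MiR-155 lay at 1.35 or above in every row, while miR-21 lay between -0.39 and 2.45 and changed sign.

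MiR-146a, the brake on Toll-like receptor signalling, was near the limit of detection. Its signal was 4.20 ± 2.76 units in LKS cells, where it was not called detected, and 12.6 ± 3.11 units in total BM, where it was. The LKS reading was 1.52 times its error and the total BM reading 4.06 times. In the signals as deposited the LKS value was the lower one, with a difference (LKS minus total BM) of -8.43 ± 4.16 units or -2.02 combined errors. The total BM signal brought to the scale of the LKS array would be 7.64 ± 1.88 units, and the difference then came to -1.03 combined errors.

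The detection call alone gave no fold for miR-146a. A bound was computed from the scaled total BM signal over the LKS signal plus 2 of its errors (9.73 units), and it came to 0.786, so no fold is given. It passed 1 without scaling (1.30) and with the LKS signal alone as the floor (1.82). Detection in total BM only was found for 52 of 566 names, a background of 9.19%. Of these 52, 37 were brighter than miR-146a in total BM and 46 had a bound above 1.

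The depth of the total BM call for miR-146a can be read from the probes around it. None of the 421 undetected names of that array had a higher signal, but 3 had a higher signal relative to its error. Among the 145 detected names, 20 were fainter. The 7 negative control names read from 4.55 to 67.8 units in LKS cells and from 4.93 to 78.9 units in total BM, so all of them lay above miR-146a in LKS cells, as the brighter ones did in total BM. The highest also lay above miR-155 on both arrays. These controls were not called detected: they read at most 1.22 times their error in LKS cells and 1.35 times in total BM. In LKS cells and total BM, miR-155 read 9.07 and 6.34 times its error, and miR-146a 1.52 and 4.06 times. In LKS cells 14 undetected names were brighter than miR-146a and 2 detected names were fainter, so the call there was within the range where detected and undetected probes overlap.

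MiR-146b, with the same seed, gave no detected signal. It read 2.48 ± 2.74 units in LKS cells and 3.57 ± 2.89 units in total BM. The difference (LKS minus total BM) was -0.273 combined errors, and the 2 readings overlapped. MiR-146b was 1 of 416 names, 73.5% of the array, detected on neither array, and the arrays do not show whether it was absent or only too faint to read. Its opposite arm, miR-146b*, was also undetected, at -8.72 ± 1.91 units in LKS cells and -7.53 ± 2.01 units in total BM. The array carried no name for the other arm of miR-155 or of miR-146a.

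**Figure D4:**
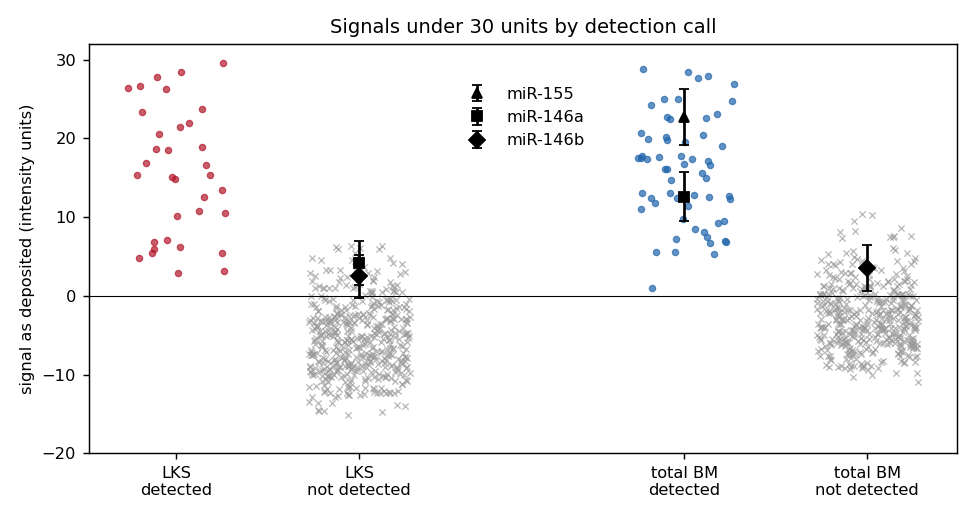
Signals below 30 units (vertical axis) of all mouse miRNAs, split by array and detection call, with LKS cells on the left (red) and total BM on the right (blue); grey crosses were not detected, and black symbols with technical errors mark miR-155, miR-146a and miR-146b where they fall in this range. MiR-146a lies among the undetected probes in LKS cells (4.20) and among the detected ones in total BM (12.6), and miR-146b among the undetected on both.

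Other miRNAs known to respond to Toll-like receptor or cytokine signals were mixed in direction. Their list was chosen with earlier results of these data known, so its counts are no independent result. Of 12 such names, 3 were detected on both arrays, 3 in LKS cells only and 6 on neither (miR-132, miR-147, miR-9, miR-187, miR-511 and miR-99b). Of the 3 shared names none was at least 2-fold higher in LKS cells and 1 was at least 2-fold lower, against backgrounds of 18.3% in each direction, and their median log2 ratio was -0.75, against 0.07 over all 93. The low one was miR-223, which is abundant in neutrophils: it had 822 ± 73.0 units in LKS cells and 7250 ± 641 units in total BM, a log2 ratio of -2.42 ± 0.18. MiR-212 had a log2 ratio of -0.75 ± 0.22 that became -1.47 without scaling, which would make it another name at least 2-fold lower. Let-7i, a known repressor of Tlr4, had a log2 ratio of 0.59 ± 0.18 that became -0.14 without scaling. The 3 names detected in LKS cells only, a class that held 0.883% of all names, were let-7e, miR-125b-5p and miR-125a-5p. Of these, miR-125b-5p is also on the early progenitor list. Their bounds, which take no error off the LKS signal, were 9.42-fold, 7.56-fold and 2.04-fold higher in LKS cells. That of miR-125a-5p rests on a signal of 5.43 ± 2.80 units, 1.94 times its error. The 2 arrays differed by 1.69 combined errors for it, so 2.04-fold is not a firm lower limit.

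MiR-155 and the miRNAs of mature blood cells differed between the arrays in opposite directions. In LKS cells the neutrophil marker miR-223 was 5.34-fold lower and the lymphocyte marker miR-342-3p 4.94-fold lower. The other lymphocyte marker, miR-150, read -3.70 ± 2.70 units in LKS cells and 17.7 ± 3.22 units in total BM. Only the total BM array called it. Its computed bound was 3.69-fold lower in LKS cells. That bound takes no error off the total BM signal, so 3.69-fold is not a firm lower limit. The summed erythroid signal was -10.6 units in LKS cells and 310 units in total BM. For miR-146a the corresponding bound after scaling was below 1 (0.786), so it is not shown to have run with these markers. The part of mature cells in its reading was not tested. In bulk RNA, fewer cells that hold a miRNA and less of it per cell cannot be told apart.

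The 3 names of miR-223 and miR-142 had log2 ratios from -2.42 to -1.77, all opposite in sign to that of miR-155. The 5 names of the miR-23, miR-27 and miR-24 clusters had ratios from -0.58 to 0.65, a range that holds miR-21. No test of these differences is possible with 1 array per group.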

How the data were processed

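Total RNA of LKS cells and of total BM was extracted with miRNeasy and labelled with Cy3 by Agilent's protocol, per the labels, and run on 1 single-colour miRNA array each. The authors deposited linear intensity values (total gene signal), an intensity error for each, and a detection call of 0 or 1, per the file headers; values below 0 show that background had been subtracted. A second table deposited by the authors holds log2-like values, with column medians of 1.00 for LKS cells and 1.46 for total BM; on both arrays it ranked the names exactly as the signals did, but its constants and centring are unknown. The scanner, the software and the detection rule are likewise not given in the sources at hand.

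Arrays were scaled on the 75th percentile of the 93 miRNAs they both detected, and log2 ratios are LKS minus total BM. A ratio of at least 2-fold counted as higher or lower. Errors were propagated from both signals. A miRNA detected on 1 array has a bound, over the dim signal plus 2 errors or the array's lowest detected signal if higher. The bright signal enters it with no error taken off. Sequences come from RefSeq (GRCm38.p6), and all 4 members matched by name or synonym. Named miRNAs were the members, their other arms and seed relatives, the 3 nearest in ratio to each shared member, and the listed pathway and cell type miRNAs. Members and lists were chosen with earlier results of these data known. The computation was tested on simulated data (Python 3.11.15, numpy 2.4.6, pandas 2.3.3). The number of arrays limits the precision: with 1 per group, only technical error is known.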

Additional observations from a re-analysis of the deposited data

How the results depend on the processing

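No paired analysis was possible because LKS cells and total BM were 1 array each, which also leaves no replicate to omit. MiR-155 was at least 2-fold higher in LKS cells under all 9 alternatives tried, with log2 ratios from 1.35 to 4.21; miR-21 was positive under 7 and negative under 2. Without scaling the log2 ratios of miR-155 and miR-21 were 1.37 and -0.39, and 7 miRNAs were higher and 36 lower. In the authors' deposited value table they were 1.35 and -0.32, with 7 higher and 28 lower. The 75th percentile of all mouse names, mostly undetected, gave 4.21 and 2.45, with 77 higher and 7 lower, and a miR-146a bound of 0.181. Quantile normalization gave miR-155 2.81, its difference from miR-21 2.38, and 29 higher. Scaling on the sum of detected signals, chosen after seeing the data, gave 2.54 and 0.78, with 28 higher. For miR-21, the median of shared miRNAs gave 0.58 and the 6 non-miRNA probes 0.10. The bound of miR-146a was 1.82 with the LKS signal alone as floor. A 1.5-fold threshold gave 28 higher and 27 lower, a 4-fold threshold 7 and 11, and all names with signal above 0 on both arrays 39 lower. The cause of these shifts was not tested, apart from the scaling constants, which move every ratio by 1 amount. Depth limits miR-146a and miR-146b most, since their LKS signals were under 2 errors.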

Other observations

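MiR-212 and miR-132, both on the list of inflammation-responsive miRNAs, are neighbours on chromosome 11 and differed in detection. Their hairpins lie 203 bases apart in GRCm38.p6, and their mature 3' arms share a seed, shown in capitals.
miR-212-3p: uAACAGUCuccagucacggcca
miR-132-3p: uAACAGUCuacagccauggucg
MiR-212 read 28.5 ± 3.56 units in LKS cells and 78.8 ± 6.63 units in total BM and was detected on both arrays. MiR-132 read -6.93 ± 2.70 units in LKS cells and -4.91 ± 2.85 units in total BM and was detected on neither. The reason for this gap was not tested, and signals of different probes do not give relative abundance.

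MiR-146b had opposite signs in the 2 deposited tables, which is not particular to it. Let-7f, miR-128 and miR-23b, detected on both arrays, also had a lower raw signal but a higher deposited value in LKS cells. The number of such names was not counted. The raw signal of miR-146b was lower in LKS cells (2.48 against 3.57 units), whereas the authors' deposited value table was higher there (2.88 in LKS cells and 2.64 in total BM). Both readings were below 2 errors on each array. The median of the undetected mouse names was -5.55 units in LKS cells and -3.02 units in total BM. Above that level, miR-146b stood at 8.03 units in LKS cells and 6.59 units in total BM, and miR-146a at 9.75 units in LKS cells and 15.6 units in total BM.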
